A study of Mus musculus with 28 samples.

Results

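Sertoli cells sorted at stages IV-VIII of the seminiferous cycle were compared with Sertoli cells sorted at stages IX-XII, as 4 RNA libraries against 4 out of 28 in the series. The libraries were chosen by their stage labels. Stages IV-VIII are group C (IV-VI) and group D (VII-VIII), and stages IX-XII are group E (IX-X) and group A (XI-XII), with 2 libraries in each group, written C1 and C2 and so on by replicate. Group B (I-III, 2 libraries) was left out of the contrast and placed between the states afterwards. Every sorted library came from testes of mice that were RFP heterozygote and Amh-Cre-positive, so that Sertoli cells, where the Amh promoter drives Cre, could be sorted by red fluorescence. All had received WIN 18,446, a blocker of retinoic acid synthesis, for 7 days, then a retinoic acid injection, and were taken 42 to 50 days after it, a treatment that brings the tubules of a testis to nearby stages. The strain label is C57BL/6 x 129s4/SvJae, except for library A1, which is labelled as derived from C57BL/6 x Amh-Cre. Without that library the difference between the states called 2150 genes, against 2037 with it. These totals do not cover the same genes, and any effect of the strain label was not tested. The remaining 18 libraries come from whole testes of CD1 background mice with a NANOS2 KO, which lack germ cells, given the same treatment and taken on 9 days. They show which genes are expressed without germ cells. The labels give no age, no number of animals per library and no statement that replicates are separate animals, so p-values measure the spread between these samples, which may be technical.

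A Sertoli cell spans the wall of the seminiferous tubule and holds several generations of germ cells at once, so its neighbours change as the cycle proceeds. At the middle stages it carries round spermatids beside late spermatids, which are released at the end of stage VIII. From stage IX the next spermatids elongate, and residual bodies left by released sperm are taken up and digested. Androgen action, retinoic acid synthesis and the rebuilding of cell junctions are known to follow these stages.

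The labelled cell type was checked against 28 Sertoli genes, of which 27 passed the filter on low counts. Wt1, a Sertoli transcription factor, had 258 to 352 CPM in stages IV-VIII and 249 to 337 CPM in stages IX-XII. Sox9, which directs Sertoli fate, had 70.2 to 144 CPM in stages IV-VIII and 57 to 96.9 CPM in stages IX-XII, and the barrier protein gene Cldn11 had 815 to 1060 CPM in stages IV-VIII and 534 to 739 CPM in stages IX-XII. Amh, a hormone gene of immature Sertoli cells, was low, at 4.56 to 22.8 CPM in stages IV-VIII and 4.89 to 15.1 CPM in stages IX-XII. Of the 27 genes, 24 were not called between the states, and the median log2 fold change was 0.06. Total counts were 2686399 to 3826087 in stages IV-VIII and 4556910 to 5279746 in stages IX-XII, so every IX-XII library was deeper. Mitochondrially encoded genes took 4.61 to 12.5% of counts in stages IV-VIII and 6.06 to 11.4% in stages IX-XII. The labels' extraction protocol speaks of sorted germ cells, and germ cell transcripts were present in all 8 libraries. Protamine, transition protein and other elongating spermatid genes (18 genes) made up 0.397 to 1.54% of the normalised counts in stages IV-VIII and 1.26 to 2.12% in stages IX-XII. In bulk RNA, fewer cells of a type and less RNA per cell cannot be told apart.

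S100a1, Ndrg4 and Myl6b were high at stages IV-VIII and a spermatid marker was high at stages IX-XII. The mm10 positions are from GENCODE M21. S100a1 (chr3:90511034-90514392), a calcium-binding protein, had 129 and 224 CPM in C and 139 and 172 CPM in D, against 20.7 and 16.7 CPM in E and 4.11 and 2.44 CPM in A. Ndrg4 (chr8:95676980-95715119), of the N-myc downstream-regulated family, had 291 and 417 CPM in C and 338 and 397 CPM in D, against 29.7 and 29.3 CPM in E and 13.7 and 17.9 CPM in A. Myl6b (chr10:128494157-128498685), a myosin light chain, had 422 and 592 CPM in C and 287 and 375 CPM in D, against 41.2 and 26.4 CPM in E and 14.1 and 29.9 CPM in A. For these genes every IV-VIII library lay above every IX-XII library by several fold, and group A tended to hold the lowest values. S100a1 averaged 166 CPM ± 42.7 in stages IV-VIII and 11 CPM ± 9.1 in stages IX-XII (SD, n = 4 each; log2 fold change 4.39, SE 0.27, edgeR adjusted p = 3.65e-06). Ndrg4 (log2 fold change 4.06, SE 0.25, edgeR adjusted p = 3.65e-06) and Myl6b (log2 fold change 3.91, SE 0.30, edgeR adjusted p = 1.88e-05) rose to a similar degree. Tnp1 (chr1:73015074-73015909), a transition protein that replaces histones in elongating spermatids, had 829 and 863 CPM in C and 181 and 237 CPM in D, against 1607 and 1761 CPM in E and 2419 and 2623 CPM in A. It fell in stages IV-VIII (log2 fold change -2.29, SE 0.19, edgeR adjusted p = 2.26e-05), and group D held the lowest libraries. Rhox5 (chrX:37804842-37808876), a homeobox gene that androgen induces in Sertoli cells, had 551 and 663 CPM in C and 547 and 797 CPM in D, against 137 and 154 CPM in E and 71.8 and 44 CPM in A (log2 fold change 2.8, SE 0.23, edgeR adjusted p = 2.32e-05).

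**Figure D1:**
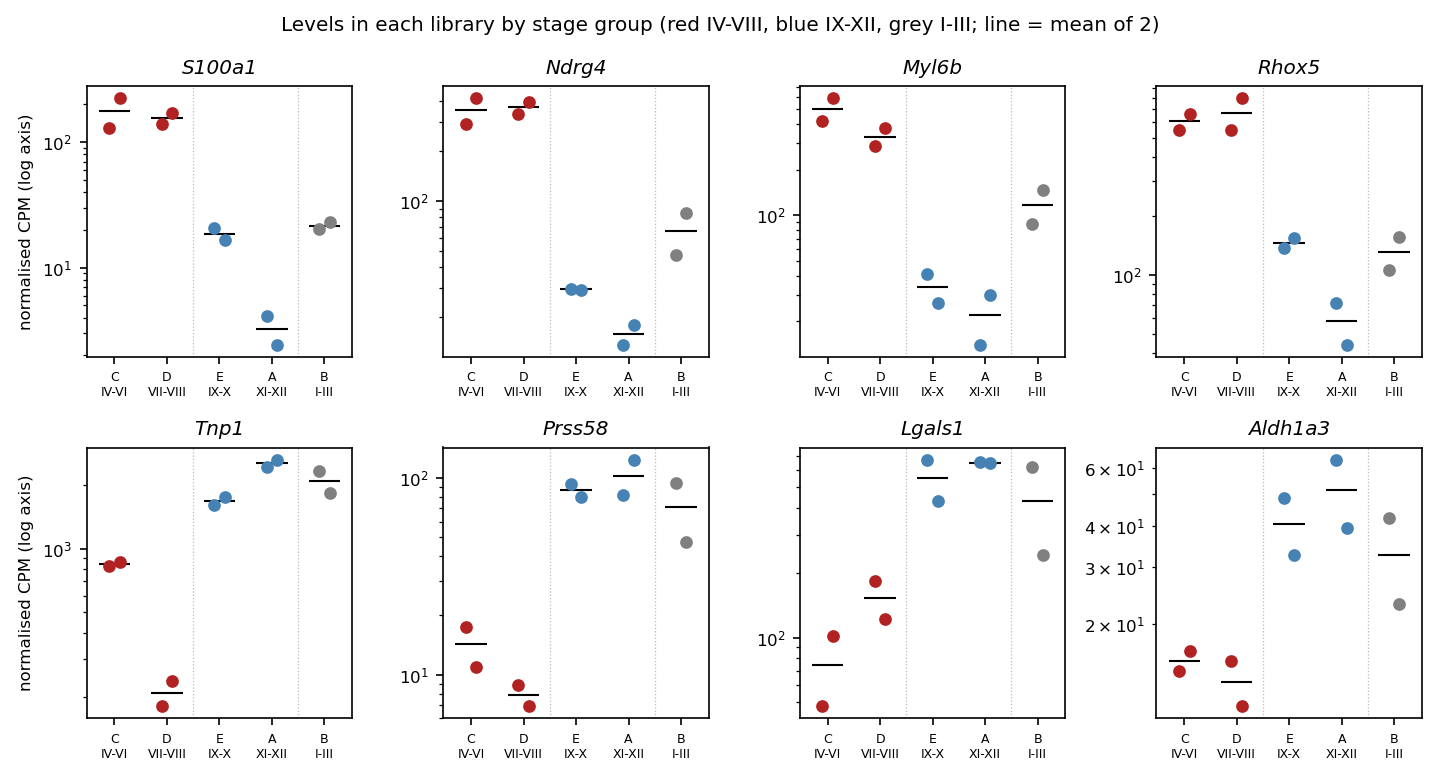
Normalised CPM (log axis) of 8 genes in each of the 10 sorted libraries, by stage group, with points for libraries and a line at the mean of 2. S100a1, Ndrg4, Myl6b and Rhox5 are high in groups C and D, and Tnp1, Prss58, Lgals1 and Aldh1a3 in groups E and A.

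Promoter windows are shown for S100a1 and Myl6b, as genes that rose, and for Tnp1 and Prss58, as genes that fell and are expressed in spermatids, because genes that rose and genes that fell differed in CpG content. Each is the RefSeq window of 300 bases on GRCm38.p6, from 250 before to 50 after the start, 5′ to 3′ on the gene's strand, with CpG dinucleotides in capitals; GRCm38 and mm10 are the same build. The windows are S100a1 at chr3:90514281-90514580, minus strand, Myl6b at chr10:128498636-128498935, minus strand, Tnp1 at chr1:73015850-73016149, minus strand and Prss58 at chr6:40900338-40900637, minus strand.
S100a1: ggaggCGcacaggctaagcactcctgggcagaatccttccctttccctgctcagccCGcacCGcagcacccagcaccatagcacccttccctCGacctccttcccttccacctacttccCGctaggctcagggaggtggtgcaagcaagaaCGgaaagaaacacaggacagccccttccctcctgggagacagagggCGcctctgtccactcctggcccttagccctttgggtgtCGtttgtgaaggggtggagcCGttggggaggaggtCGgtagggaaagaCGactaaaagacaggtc
Myl6b: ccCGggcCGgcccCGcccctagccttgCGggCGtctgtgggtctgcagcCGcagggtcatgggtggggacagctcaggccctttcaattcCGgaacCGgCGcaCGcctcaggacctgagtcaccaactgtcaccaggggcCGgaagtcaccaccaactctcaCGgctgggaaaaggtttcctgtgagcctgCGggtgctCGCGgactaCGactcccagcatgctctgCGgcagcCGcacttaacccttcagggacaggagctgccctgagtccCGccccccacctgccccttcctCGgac
Tnp1: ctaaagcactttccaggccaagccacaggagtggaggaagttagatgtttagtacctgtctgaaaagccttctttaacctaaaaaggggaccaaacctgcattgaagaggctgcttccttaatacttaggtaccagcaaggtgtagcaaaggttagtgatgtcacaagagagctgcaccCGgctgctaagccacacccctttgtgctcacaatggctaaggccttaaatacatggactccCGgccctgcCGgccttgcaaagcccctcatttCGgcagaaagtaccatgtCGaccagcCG
Prss58: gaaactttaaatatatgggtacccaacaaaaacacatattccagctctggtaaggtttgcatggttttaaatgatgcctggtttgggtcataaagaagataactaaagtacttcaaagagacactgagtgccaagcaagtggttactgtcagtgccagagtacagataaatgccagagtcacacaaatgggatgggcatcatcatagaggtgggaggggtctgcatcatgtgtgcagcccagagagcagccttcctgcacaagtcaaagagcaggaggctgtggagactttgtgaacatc
The windows hold 11 (S100a1), 20 (Myl6b), 6 (Tnp1) and 0 (Prss58) CpGs. Over all windows the median was 16 CpGs for genes that rose (993 windows of 765 genes), 12 for genes that fell (948 windows of 700 genes) and 20 for all genes tested (12930 windows of 10127 genes). Windows of genes that fell were thus poorest in CpG, and those of genes that rose lay between these and the rest. Motifs were searched on both strands. The full androgen response element, an inverted repeat, was in 0.705% of windows of genes that rose, 0.422% of those that fell and 0.34% of all windows. The half-site TGTTCT, which a full element may contain, was in 14%, 15% and 12.8%. The nuclear receptor half-site AGGTCA was in 13.1% of windows of genes that rose, 17.5% of those that fell and 13.2% of all. None of these 3 motifs was in the 4 windows shown. The GATA site AGATAA was in 8.56% of windows of genes that rose, 6.75% of those that fell and 6.18% of all, and was in the Prss58 window at 154 and 87 bases before the start. A match is a description of letters in these windows only.

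Of 14331 genes tested, 2037 (14.2%) differed between the states at an adjusted p under 0.05 (edgeR quasi-likelihood F test with Benjamini-Hochberg adjustment). In stages IV-VIII, 1044 were higher (7.28%) and 993 lower (6.93%), of which 755 (5.27%) and 727 (5.07%) by at least 2-fold. The median log2 fold change was 1.44 among genes called higher, -1.26 among genes called lower and -0.01 over all genes tested. The 4 IV-VIII libraries lay above the 4 IX-XII libraries for 1373 genes (9.58% of genes tested) and below them for 1106 (7.72%). Of the genes called, 77.3% of those higher and 68.9% of those lower had no overlap between the states. Counts thinned to the depth of the smallest sorted library gave 1675 calls, 815 higher and 860 lower, of which 1580 were among the 2037. Fewer genes were called without library E1 (919), library E2 (1164) or library D2 (1191). Scaling by the Sertoli core list gave 668 higher and 1169 lower and a median log2 fold change of -0.14 over all genes.

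Of the 12 largest rises among genes of at least 4 log2 CPM on average, 11 are described, among them S100a1, Ndrg4 and Myl6b. The others were enzymes, transporters and adhesion or signalling proteins. Of these, Padi2, which converts arginine in proteins to citrulline, had 43.9 and 78.4 CPM in C and 49 and 36.1 CPM in D, against 5.86 and 2.72 CPM in E and 1.17 and 0.815 CPM in A (log2 fold change 4.59, SE 0.42, edgeR adjusted p = 3.82e-05). Adam8, a membrane metalloprotease, had 46.3 and 61.9 CPM in C and 55.3 and 35.6 CPM in D, against 6.06 and 2.09 CPM in E and 0.782 and 2.24 CPM in A (log2 fold change 4.3, edgeR adjusted p = 3.82e-05). All 4 libraries of stages IV-VIII stood above those of stages IX-XII for both genes. Pcyt1b, an enzyme of phosphatidylcholine synthesis, had 68.1 and 76.2 CPM in C and 80 and 66.9 CPM in D, against 7.82 and 9.0 CPM in E and 3.71 and 3.46 CPM in A (log2 fold change 3.72, SE 0.24, edgeR adjusted p = 5.27e-06). Apcdd1, an inhibitor of Wnt signalling, had 47.4 to 128 CPM in stages IV-VIII and 1.83 to 11.3 CPM in stages IX-XII (log2 fold change 4.26). Slc13a2, a dicarboxylate transporter, had 28.9 to 51.9 CPM in stages IV-VIII and 1.17 to 3.46 CPM in stages IX-XII (log2 fold change 3.79). Kirrel, an adhesion molecule known from the kidney filter, had 29.1 to 76.3 CPM in stages IV-VIII and 1.43 to 10.9 CPM in stages IX-XII (log2 fold change 3.68). Tmprss6, a serine protease, had 19.7 to 54.1 CPM in stages IV-VIII and 0.204 to 7.12 CPM in stages IX-XII (log2 fold change 3.85). Frmpd1, a protein with FERM and PDZ domains, had 168 to 249 CPM in stages IV-VIII and 11.9 to 17.5 CPM in stages IX-XII (log2 fold change 3.76). These 5 genes had no overlap between states and edgeR adjusted p from 1.88e-05 to 0.000103. The calls of the 11 rises named held under every alternative run, and all 11 genes had at least 1 CPM in NANOS2 KO testis.

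The largest falls were of another kind. Of 12 genes, 7 averaged under 1 CPM in NANOS2 KO testis (Prss58, Prss51, Prss52, Cstl1, Noxred1, Cypt1 and Prss37). Prss58, a testis serine protease, had 17.6 and 10.9 CPM in C and 8.85 and 6.92 CPM in D, against 92.8 and 80.4 CPM in E and 81.5 and 124 CPM in A (log2 fold change -3.16, SE 0.29, edgeR adjusted p = 3.82e-05). Noxred1, named for an oxidoreductase domain, had 9.48 and 9.06 CPM in C and 15.5 and 19.7 CPM in D, against 82.1 and 75.3 CPM in E and 70.8 and 90.4 CPM in A (log2 fold change -2.63, SE 0.26, edgeR adjusted p = 6.5e-05). Both had a clear gap between the states. Cstl1, a cystatin-like gene, had 4.79 to 20 CPM in stages IV-VIII and 53.2 to 89.8 CPM in stages IX-XII (log2 fold change -2.64, edgeR adjusted p = 6.62e-05). Cypt1, of the sperm head theca, had 6.32 to 46.4 CPM in stages IV-VIII and 81.1 to 145 CPM in stages IX-XII (log2 fold change -2.45, edgeR adjusted p = 0.0016). Prss51, another serine protease, had 1.4 and 2.19 CPM in group C and 7.74 and 10.8 CPM in group D, against 21.3 to 35.8 CPM in the IX-XII libraries (log2 fold change -2.81, edgeR adjusted p = 0.000603). Prss52 had 1.4 and 2.81 CPM in C and 11.4 and 21 CPM in D, against 59 and 67.4 CPM in E and 23.1 and 28.5 CPM in A (log2 fold change -2.76, edgeR adjusted p = 0.00273). Prss37 had 3.16 and 11.6 CPM in C and 28.8 and 27.4 CPM in D, against 129 and 98.6 CPM in E and 43.4 and 60.3 CPM in A (log2 fold change -2.41, edgeR adjusted p = 0.00481). For these 5 genes the states did not overlap. The values of Prss51, Prss52 and Prss37 were lower in group C than in group D, though none of them was called between D and C. Prss52 and Prss37 were not called without group C (log2 fold change -1.31 and -1.46, edgeR adjusted p = 0.163 and 0.106), without group E (0.0528 and 0.0763), or without libraries C1 and D1 together (0.0557 and 0.0636). Reads of close relatives such as Prss51 and Prss52 could have been split between them, since no source used here says how reads were assigned.

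The other 5 of the 12 largest falls (Mest, Cmbl, Gda, B4galt6 and Lgals1) reached at least 1 CPM in NANOS2 KO testis, and so did Tmem255a, Pygl and Fam84b. Lgals1, galectin-1, had 48.1 and 102 CPM in C and 183 and 122 CPM in D, against 671 and 433 CPM in E and 656 and 647 CPM in A (log2 fold change -2.49, SE 0.33, edgeR adjusted p = 0.000387). It averaged 52 CPM ± 11.8 in NANOS2 KO testis (SD, n = 18). Tmem255a, an X-linked membrane protein gene, had 32.3 and 61.9 CPM in C and 130.5 and 59.4 CPM in D, against 389 and 245 CPM in E and 499.9 and 235 CPM in A (log2 fold change -2.35, SE 0.40, edgeR adjusted p = 0.00205). Cmbl, a hydrolase, had 2.81 and 5.93 CPM in C and 17.3 and 11 CPM in D, against 60.6 and 43.7 CPM in E and 57.1 and 41.3 CPM in A (log2 fold change -2.68, SE 0.39, edgeR adjusted p = 0.000768). For these 3 genes the libraries of the states did not overlap, and neither did they for the next 4. Gda, guanine deaminase, had 3.86 to 9.58 CPM in stages IV-VIII and 23 to 71.8 CPM in stages IX-XII (log2 fold change -2.64, edgeR adjusted p = 0.00317). B4galt6, which makes lactosylceramide, had 5.62 to 14.4 CPM in stages IV-VIII and 25.1 to 73.7 CPM in stages IX-XII (log2 fold change -2.52, edgeR adjusted p = 0.00507). Pygl, a glycogen phosphorylase, had 2.81 to 17.2 CPM in stages IV-VIII and 39.3 to 66.1 CPM in stages IX-XII (log2 fold change -2.22, edgeR adjusted p = 0.00449). Fam84b had 5.93 to 10.7 CPM in stages IV-VIII and 24.9 to 64.9 CPM in stages IX-XII (log2 fold change -2.29, edgeR adjusted p = 0.00187). Gda and B4galt6 were not called without group C (edgeR adjusted p = 0.0583 and 0.0707) or without libraries C1 and D1 together (0.0528 and 0.0546). In NANOS2 KO testis Gda, B4galt6, Pygl and Fam84b averaged 22.6 CPM ± 6.28, 24.2 CPM ± 8.29, 21.3 CPM ± 2.63 and 5.65 CPM ± 2.25, in the same order. Mest, an imprinted gene, had 10.5 and 7.81 CPM in C and 1.11 and 1.28 CPM in D, against 20.1 and 10.5 CPM in E and 40.5 and 25.1 CPM in A (log2 fold change -2.73, SE 0.35, edgeR adjusted p = 0.000361). Group C overlapped stages IX-XII for Mest, and its value was lowest in group D; without group D it was not called (log2 fold change -1.29, edgeR adjusted p = 0.09).

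**Figure D2:**
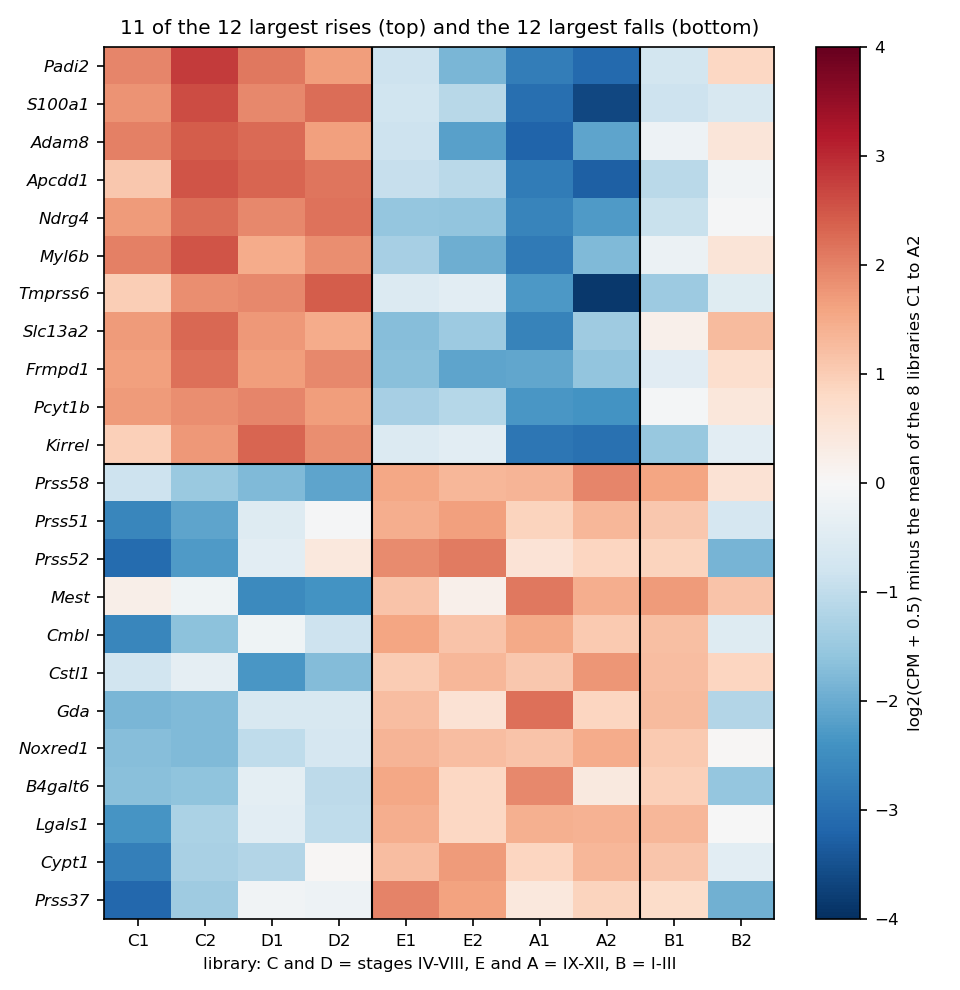
Level of 11 of the 12 largest rises (top) and the 12 largest falls (bottom) in each of 10 sorted libraries, as log2(CPM + 0.5) minus the mean of the 8 libraries C1 to A2 (red above, blue below). Library C1 is the lowest IV-VIII library for Prss37 and Cypt1, and for these genes library B1 lies higher than replicate 2.

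Fewer genes were called between the groups within a state, where 2 libraries stood against 2 rather than 4 against 4. Group D differed from group C in 90 genes (0.628% of those tested), of which 2 were higher (0.014%) and 88 lower (0.614%) by edgeR. DESeq2 called 310 (2.16%). The 2 genes higher in D were Gsta3, a glutathione transferase, and Tbc1d10c, a GTPase regulator, named after their values were seen. Gsta3 had 70 and 60.5 CPM in group D, against 4.21 and 15.9 CPM in group C (log2 fold change 2.67, edgeR adjusted p = 0.025), and Tbc1d10c had 8.48 and 11 CPM, against 1.05 and 1.87 CPM (2.70, 0.0427). Genes lower in D included protamine Prm1 (log2 fold change D minus C -3.05, edgeR adjusted p = 0.00194), Tnp1 (-2.02, 0.00662), the phagocytosis ligand Gas6 (-2.52, 0.00217) and Alas2, of heme synthesis (-4.05, 0.00198). The count was 0 without either group D library, 24 without library C1 and 392 without library C2, 27 and 31 without E1 and E2, and 188 and 189 without A1 and A2. For group A minus group E, edgeR called 0 genes (0%), which does not show that these groups were alike. In that comparison S100a1 had a log2 fold change of -2.50 (SE 0.39, edgeR adjusted p = 0.1635). There were 728 genes (5.08%) with p under 0.05 before adjustment, and DESeq2 called 35 (0.244%). Without C1 or C2, edgeR called 15. The median absolute log2 difference between D and C was 0.38 among genes called higher between the states, 0.75 among genes called lower and 0.34 over all genes. Between A and E it was 0.43, 0.34 and 0.25.

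Library C1 stood apart for a set of genes. The receptor gene Notch1 had 14 and 85.6 CPM in C and 134 and 101 CPM in D, against 25.2 and 28.7 CPM in E and 4.69 and 7.94 CPM in A. Drd4, a dopamine receptor gene that androgen induces in Sertoli cells, had 16.5 and 99.3 CPM in C and 92.5 and 108 CPM in D, against 24.8 and 41 CPM in E and 2.35 and 2.04 CPM in A. Stra6, the receptor for retinol uptake, had 8.43 and 151 CPM in C and 234 and 209 CPM in D, against 84 and 85.4 CPM in E and 8.8 and 5.09 CPM in A. In each case library C1 lay within the range of stages IX-XII while the other 3 IV-VIII libraries lay above it. Without library C1, 1824 genes were called between the states, 993 higher and 831 lower. Without library C2, the calls were 1742, 748 higher and 994 lower, Stra6 had a log2 fold change of 0.83 (edgeR adjusted p = 0.057) and Notch1 one of 1.64 (edgeR adjusted p = 0.0091).

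Group D against A and group C against E compare the states with no library in common. D minus A called 1558 genes (10.9%), 740 higher (5.16%) and 818 lower (5.71%). C minus E called 680 (4.74%), 393 higher (2.74%) and 287 lower (2%), also by edgeR. Of the genes higher in D than in A, 188 were also called higher in C than in E, which is 25.4% of the first list and 47.8% of the second. For genes lower in D the count was 90, or 11% and 31.4%. Of the 740 genes higher in D minus A, 79.9% were above 0 in C minus E, against 51.3% of all genes tested, and their median log2 fold change there was 0.78. Of the 818 genes lower in D minus A, 69.6% were below 0 in C minus E, against 48.7% of all genes, with a median of -0.33. Genes called with opposite signs were 1 (Npnt, a matrix protein, higher in D minus A) and 14 (lower in D minus A), among them Alas2; Npnt and Alas2 are named here after their values were seen. The overlaps rested on group E: genes higher in both were 32 without E1 and 10 without E2, and genes lower in both were 5 and 6. Without C1 or C2 they were 139 and 95 higher, 17 and 45 lower. Without D1 or D2 they were 115 and 96 higher, 27 and 45 lower. C minus E alone called 61 and 18 genes without E1 and E2 and 229 without library C1, and D minus A called 613 and 638 without D1 and D2.

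**Figure D3:**
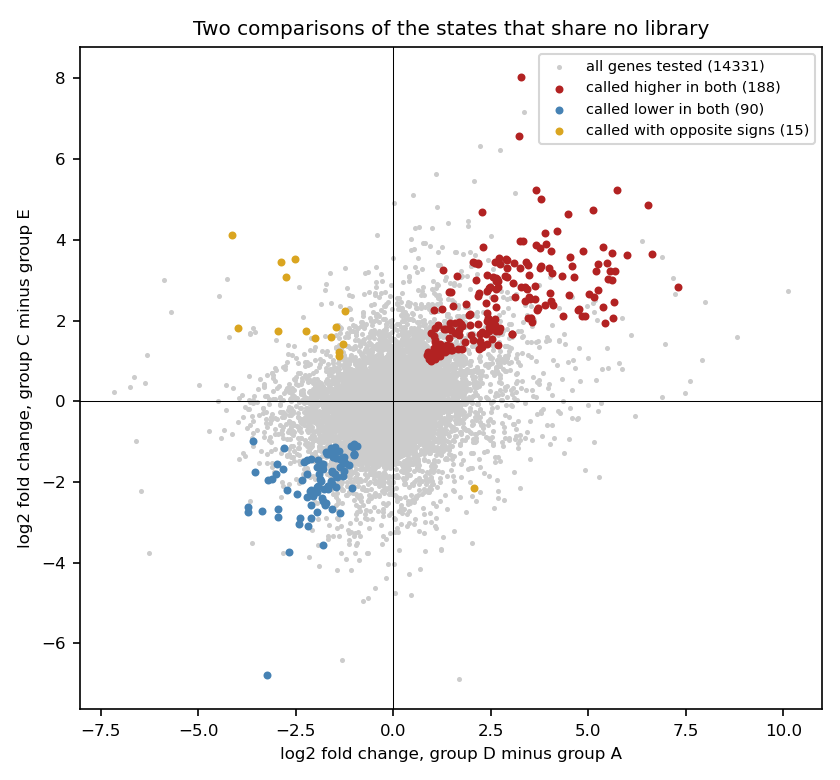
Log2 fold change of each of 14331 genes in group D minus group A (x) against group C minus group E (y). Red points (188) were called higher and blue points (90) lower in both comparisons, and yellow points (15) were called with opposite signs.

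Most Sertoli identity genes were not called between the states. Of 27 Sertoli core genes tested, 2 were higher and 1 lower (7.28% and 6.93% of all genes tested were called in these directions), and the median of 0.06 became -0.09 when the list itself set the scale. Besides Rhox5, its cluster neighbour Rhox8 had 524 and 437 CPM in C and 531 and 589.8 CPM in D, against 293 and 335 CPM in E and 308 and 194 CPM in A (log2 fold change 0.89, SE 0.20, edgeR adjusted p = 0.0116), a call lost without library E1 (edgeR adjusted p = 0.0697). Espn, which bundles actin at the ectoplasmic specialization, had 1298 and 1226 CPM in C and 380.0 and 457 CPM in D, against 1210 and 956 CPM in E and 1678 and 1660 CPM in A (log2 fold change -0.89, SE 0.18, edgeR adjusted p = 0.00534). Its fall lay in group D, since group C overlapped stages IX-XII. Of 10 genes tested that androgen regulates in Sertoli cells, 3 were higher and 0 lower, with a median log2 fold change of 0.37. With library C1 left out 4 were higher, and on the scale of the Sertoli core list 3 were higher and 1 lower. The 3 were Rhox5, Drd4 (log2 fold change 3.16, SE 0.46, edgeR adjusted p = 0.000823) and the protease inhibitor Eppin, which had 159 and 259 CPM in C and 362 and 286 CPM in D, against 162 and 142 CPM in E and 94.8 and 73.1 CPM in A (log2 fold change 1.21, SE 0.21, edgeR adjusted p = 0.00217). For Drd4 and Eppin library C1 overlapped stages IX-XII. Drd4 was not called without group A (log2 fold change 1.21, edgeR adjusted p = 0.158) or in a fit of the 8 libraries as 2 states (2.16, 0.127), and Eppin was not called without group A (0.77, 0.074) or group D (0.89, 0.0595).

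Enzymes that make retinoic acid from retinal moved in opposite directions. Of 19 retinoid genes, 3 rose (Stra6, Aldh1a1 and Aldh1a2) and 2 fell (Aldh1a3 and Bco1), beside 7.28% and 6.93% of all genes tested. The median log2 fold change was 0.28. Aldh1a2 had 74.4 and 146 CPM in C and 184 and 182 CPM in D, against 52.4 and 80.4 CPM in E and 22.1 and 57.8 CPM in A (log2 fold change 1.47, SE 0.30, edgeR adjusted p = 0.00666), with library C1 inside the IX-XII range. Aldh1a1 had 763 and 572 CPM in C and 527 and 518 CPM in D, against 328 and 278 CPM in E and 406 and 297 CPM in A (log2 fold change 0.86, SE 0.19, edgeR adjusted p = 0.00864). The call of Aldh1a2 was lost without library E1 (edgeR adjusted p = 0.0547) and that of Aldh1a1 without E2 (edgeR adjusted p = 0.0529). Aldh1a3 had 14.4 and 16.6 CPM in C and 15.5 and 11.3 CPM in D, against 48.5 and 32.6 CPM in E and 63.5 and 39.3 CPM in A (log2 fold change -1.67, SE 0.28, edgeR adjusted p = 0.00212). It had no overlap and was called under every alternative. Bco1, which splits beta-carotene, had 4.42 to 10.5 CPM in stages IV-VIII and 15.4 to 20 CPM in stages IX-XII (log2 fold change -1.03, edgeR adjusted p = 0.0384). It was not called without library A2 (edgeR adjusted p = 0.0717), either library of group C (0.0522 and 0.0988), library D1 (0.123) or either library of group E (0.122 and 0.0947). For Stra6 (log2 fold change 2.45, SE 0.56, edgeR adjusted p = 0.0113), whose values are given above, the call was lost without E1 or E2 (log2 fold change 2.42 and 2.44). It was also lost without group A (0.65, edgeR adjusted p = 0.592), without group D (1.72, 0.183) and in a fit of the 8 libraries as 2 states (1.71, 0.283). Under limma it was not called either (limma adjusted p 0.0592 to 0.163). Among 9 hormone receptor genes tested, 1 was higher and 1 lower, beside the same shares of all genes tested (median log2 fold change 0.05, and -0.14 on the scale of the Sertoli core list). The thyroid hormone receptor Thra had 79 and 103 CPM in C and 85.1 and 139 CPM in D, against 21.3 and 25.5 CPM in E and 6.84 and 12.2 CPM in A (log2 fold change 2.76, SE 0.31, edgeR adjusted p = 0.000143). The orphan receptor Rora had 17.2 and 22.5 CPM in C and 35 and 19.7 CPM in D, against 65.5 and 58.8 CPM in E and 100.3 and 48.1 CPM in A (log2 fold change -1.55, SE 0.31, edgeR adjusted p = 0.00607). Thra and Rora each separated the states without overlap. The FSH receptor gene Fshr was not called, at 11.6 to 24.3 CPM in stages IV-VIII and 15.5 to 28.4 CPM in stages IX-XII.

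Members of the S100, Ndrg and actin-binding families held large rises. In the S100 and Ndrg families, 5 of 9 members tested were higher and 0 lower (median log2 fold change 1.37), beside 7.28% and 6.93% of all genes tested. Among the 5 were S100a1 and Ndrg4 themselves, chosen as markers with earlier results of these data known. S100b had 14.4 and 13.4 CPM in C and 22.9 and 19.2 CPM in D, against 2.15 and 1.67 CPM in E and 0 and 0.204 CPM in A (log2 fold change 5.07, SE 0.47, edgeR adjusted p = 3.82e-05), with the IX-XII values at or near a few reads. Ndrg1, named after its values were seen, had 118 and 326 CPM in C and 355 and 365 CPM in D, against 73.7 and 83.9 CPM in E and 19.9 and 18.1 CPM in A (log2 fold change 2.87, SE 0.30, edgeR adjusted p = 0.000102). S100b and Ndrg1 separated the states without overlap. Of 26 actin and myosin genes, 4 were higher and 2 lower (median 0.27, and 0.12 on the scale of the Sertoli core list). The 4 included Myl6b, a marker chosen in the same way. Actn3, an actin cross-linker, had 138 and 499.8 CPM in C and 553 and 701 CPM in D, against 128 and 126 CPM in E and 15.6 and 12.6 CPM in A (log2 fold change 3.4, SE 0.37, edgeR adjusted p = 0.000129), and library C1 lay just above group E. Mical2, which oxidises actin filaments, had 445 and 454 CPM in C and 214 and 210.4 CPM in D, against 45.5 and 31.8 CPM in E and 112 and 160.1 CPM in A (log2 fold change 2.09, SE 0.23, edgeR adjusted p = 0.000141), highest in group C and above every IX-XII library in both groups. Its relative Mical3 ran the other way, with 248 and 225 CPM in C and 129 and 166 CPM in D, against 283 and 252 CPM in E and 334 and 528 CPM in A (log2 fold change -0.86, SE 0.20, edgeR adjusted p = 0.0135). The Mical3 call was lost without library D1 (edgeR adjusted p = 0.0571) or library E1 (0.0614). The actin bundler Pls3 had 66.7 and 50 CPM in C and 18.4 and 15.9 CPM in D, against 73.1 and 39.1 CPM in E and 145 and 70.2 CPM in A (log2 fold change -1.3, SE 0.28, edgeR adjusted p = 0.00767). It was lowest in group D, and was not called without library E1 (log2 fold change -1.05). Without group D the log2 fold changes of Pls3 and Mical3 were -0.41 and -0.52 (edgeR adjusted p = 0.561 and 0.27).

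Junction genes split by member. Of 22 tested, 2 were higher and 5 lower, beside 7.28% and 6.93% of all genes tested, with a median log2 fold change of -0.21. Without library C1 there were 2 higher and 3 lower, and on the scale of the Sertoli core list 1 higher and 5 lower. Jam2, a junctional adhesion molecule, had 46.3 and 61.5 CPM in C and 96.9 and 53.5 CPM in D, against 27.9 and 20.9 CPM in E and 37.5 and 18.5 CPM in A (log2 fold change 1.28, SE 0.28, edgeR adjusted p = 0.00844), a call lost without library E2 (edgeR adjusted p = 0.0509). Its partner Jam3 had 69.9 and 82.5 CPM in C and 115 and 98.9 CPM in D, against 179 and 166 CPM in E and 215 and 154 CPM in A (log2 fold change -0.98, SE 0.21, edgeR adjusted p = 0.00715). Pvrl3, the older symbol of nectin-3, had 64.6 and 46.9 CPM in C and 55.3 and 55.9 CPM in D, against 115 and 131 CPM in E and 105 and 122 CPM in A (log2 fold change -1.08, SE 0.19, edgeR adjusted p = 0.00252). Jam3 and Pvrl3 were lower in every IV-VIII library than in every IX-XII library. Ocln, occludin of the tight junction, and Pvrl2, the older symbol of nectin-2, were called lower as well (log2 fold change -1.24 and -0.67, edgeR adjusted p = 0.0284 and 0.0478). Neither was called without A1, C1, D2, E1 or E2 (edgeR adjusted p 0.0502 to 0.12), nor was Pvrl2 without B2 (0.055) or D1 (0.115). Cdh1, E-cadherin, was called higher (log2 fold change 1.61, edgeR adjusted p = 0.0446) with 1.4 and 10.6 CPM in C and 31 and 22.6 CPM in D, against 6.84 and 16.1 CPM in E and 1.17 and 1.83 CPM in A, and the states overlapped. Its call was lost without any library other than library C1 and library A2, with edgeR adjusted p from 0.052 (without library B2 or library E2) to 0.541 and a log2 fold change of 0.56 without library C2.

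Of 21 genes for the uptake of dying cells and residual bodies, 1 was higher and 4 were lower (median log2 fold change -0.15), beside 7.28% and 6.93% of all genes tested. Mfge8, a bridge to phosphatidylserine, had 188 and 417 CPM in C and 459 and 469 CPM in D, against 188 and 239 CPM in E and 129 and 123 CPM in A (log2 fold change 1.19, SE 0.25, edgeR adjusted p = 0.00661), with library C1 inside the IX-XII range. Mfge8 was not called without group A (0.81, edgeR adjusted p = 0.127) or group D (0.89, 0.123). Gas6, the ligand of the Axl, Mertk and Tyro3 receptors, had 942 and 727 CPM in C and 133 and 158 CPM in D, against 546 and 374 CPM in E and 1005 and 1050 CPM in A (log2 fold change -0.98, SE 0.19, edgeR adjusted p = 0.00481). Group D held the low values of Gas6, and group C overlapped stages IX-XII. Without group D its log2 fold change was 0.28. Elmo1 and Dock1, which act together to activate Rac in engulfment, had 42.5 to 109.9 CPM in stages IV-VIII and 74.3 to 183 CPM in stages IX-XII (Elmo1, log2 fold change -0.84, edgeR adjusted p = 0.0203) and 16.1 to 35.4 CPM in stages IV-VIII and 40.3 to 78.2 CPM in stages IX-XII (Dock1, log2 fold change -1.25, edgeR adjusted p = 0.0202). Scarb1, a lipoprotein and phosphatidylserine receptor, was the other member called lower and is described with cholesterol genes. Dock1 had no overlap between the states, whereas Elmo1 did. Without group D the log2 fold change of Elmo1 was -0.22 (edgeR adjusted p = 0.707). With library C1 left out, 2 members of the list were called lower. The call of Elmo1 was lost without library C2 (edgeR adjusted p = 0.0541), library D2 (0.0824) or library E1 (0.119). The call of Dock1 was lost without library C1 (0.0595), library D2 (0.0923) or library E1 (0.0797, all edgeR adjusted p).

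Members of the Notch pathway moved in both directions. Of 8 Notch pathway genes tested, 4 were higher (Notch1, Notch2, Jag2 and Heyl) and 1 lower (Jag1), beside 7.28% and 6.93% of all genes tested. The median log2 fold change was 0.79. Notch1 rose (log2 fold change 2.55, SE 0.46, edgeR adjusted p = 0.00283) with the exception of library C1 given above. Notch2 separated the states, with 56.2 and 112 CPM in C and 112 and 94 CPM in D, against 49.5 and 47.5 CPM in E and 45.8 and 33 CPM in A (log2 fold change 1.09, SE 0.24, edgeR adjusted p = 0.00828). Heyl, a target gene, was at a few CPM (0.702 to 4.79 CPM in stages IV-VIII and 0.196 to 2.09 CPM in stages IX-XII) and passed narrowly (log2 fold change 1.92, edgeR adjusted p = 0.0492). It was called without library C1 but in none of the other 9 fits that left out 1 library (edgeR adjusted p 0.0579 to 0.369). The ligand Jag2 had 13 and 34.4 CPM in C and 16.6 and 38.7 CPM in D, against 5.47 and 10.7 CPM in E and 5.47 and 9.98 CPM in A (log2 fold change 1.7, SE 0.47, edgeR adjusted p = 0.0278). The ligand Jag1 had 24.6 and 24.1 CPM in C and 5.9 and 10.5 CPM in D, against 31.5 and 26.4 CPM in E and 28 and 47.5 CPM in A (log2 fold change -1.21, SE 0.29, edgeR adjusted p = 0.0133). Jag2 was thus higher and Jag1 lower, each with no overlap between states. Without group D the log2 fold change of Jag1 was -0.44 (edgeR adjusted p = 0.509), and in a fit of the 8 libraries as 2 states -1.05 (0.125). The Jag2 call was lost without library C2 (edgeR adjusted p = 0.119), library D2 (0.156) or either group E library (0.145 and 0.0565), and the Jag1 call without library D1 (0.061) or library E1 (0.0637). Of 7 niche growth factor genes tested, Wnt6 was higher, with 100.1 and 100.3 CPM in C and 42 and 53 CPM in D, against 31.3 and 28.2 CPM in E and 30.1 and 31.4 CPM in A (log2 fold change 1.19, SE 0.19, edgeR adjusted p = 0.0016), and Jag1 was lower. Wnt6 was not called without group C (0.65, edgeR adjusted p = 0.102). Kitl, the ligand of the Kit receptor on spermatogonia, was not called, at 21.5 to 36.9 CPM in stages IV-VIII and 22.6 to 63.5 CPM in stages IX-XII.

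Energy and lipid genes held single members with large changes. Of all genes tested, 7.28% were called higher and 6.93% lower, and the lists here stand beside these shares. The counts of glycolysis and cholesterol genes called higher were near them. Of 22 genes of glycolysis and lactate export, 2 were higher and 4 lower (median log2 fold change -0.22). Without library C1 there were 1 higher and 2 lower, and on the scale of the Sertoli core list 1 higher and 4 lower. Hk2, a hexokinase, was among those higher, and Gpi1, Pfkl and Slc2a8 were among those lower, with states that overlapped. Hk2 was called without library A1 but in none of the other 9 fits that left out 1 library (edgeR adjusted p 0.0543 to 0.154), nor on the scale of the Sertoli core list (0.215). Gpi1 was not called without A2, B2, C1, D1, D2, E1 or E2 (edgeR adjusted p 0.0542 to 0.136), Pfkl without A1, C1, D1, E1 or E2 (0.0869 to 0.155), and Slc2a8 without C2, D1, D2 or E1 (0.0519 to 0.0821). Slc16a3, a lactate exporter, had 26 and 55.3 CPM in C and 70 and 45.1 CPM in D, against 7.62 and 9.42 CPM in E and 1.17 and 3.06 CPM in A (log2 fold change 3.5, SE 0.40, edgeR adjusted p = 0.000143). Pdk1, which turns off pyruvate dehydrogenase, had 83.2 and 80 CPM in C and 134 and 109.7 CPM in D, against 223 and 191 CPM in E and 291 and 167 CPM in A (log2 fold change -1.12, SE 0.27, edgeR adjusted p = 0.0134). It was not called without library D2 (edgeR adjusted p = 0.0641) or library E1 (0.0591). Both genes separated the states without overlap. Of 22 cholesterol genes, 1 was higher and 3 were lower (Soat1, Scarb1 and Dhcr7, with log2 fold changes -0.86, -0.69 and -0.72), with a median of -0.04. Their edgeR adjusted p were 0.0283, 0.0345 and 0.0391. None of the 3 was called without A1, C1, D2, E1 or E2 (edgeR adjusted p 0.0533 to 0.126), nor were Scarb1 and Dhcr7 without D1 (0.0632 and 0.0953). Of 13 lipid droplet and lipase genes, the droplet coat gene Plin2 was higher, with 36.2 and 68.4 CPM in C and 56.4 and 63.3 CPM in D, against 18.4 and 18.4 CPM in E and 17.2 and 11.4 CPM in A (log2 fold change 1.78, SE 0.27, edgeR adjusted p = 0.00117). Abhd5, which activates the main triglyceride lipase, was lower, with 61.4 and 59.4 CPM in C and 57.5 and 73.8 CPM in D, against 163 and 154 CPM in E and 162 and 224 CPM in A (log2 fold change -1.47, SE 0.20, edgeR adjusted p = 0.000588). Plin2 and Abhd5 separated the states without overlap. Plin5, a droplet coat gene, and Lipe, a lipase, were called lower too, the median over the list being -0.10. Their calls were lost without C1 (edgeR adjusted p = 0.0614 for Plin5 and 0.0698 for Lipe), D1 (0.103 and 0.0805) or E1 (0.0845 and 0.0812), that of Plin5 also without A1 (0.0566), C2 (0.0864) or E2 (0.0984), and that of Lipe without A2 (0.0524). Without group D the log2 fold change of Lipe was -0.34 (edgeR adjusted p = 0.576), and without group C that of Plin5 was -0.51 (0.436). In the choline list, Pcyt1b was higher and Chpt1 and Chdh lower among 10 genes (median -0.03). Chdh, choline dehydrogenase, had 38.3 and 6.87 CPM in C and 2.58 and 3.33 CPM in D, against 31.5 and 39.5 CPM in E and 23.7 and 57.8 CPM in A (log2 fold change -2.21, SE 0.46, edgeR adjusted p = 0.00732), with library C1 at the level of stages IX-XII. Without group D its log2 fold change was -0.76 (edgeR adjusted p = 0.493), and in a fit of the 8 libraries as 2 states -1.61 (0.176). Chpt1 (log2 fold change -0.98, edgeR adjusted p = 0.0269) was not called without A1, C1, D2, E1 or E2 (edgeR adjusted p 0.059 to 0.111).

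Glutathione enzymes were higher at stages IV-VIII in 5 of 22 members and lower in 1, with a median log2 fold change of 0.32. All genes tested were called higher in 7.28% and lower in 6.93%. The counts of proteases and cell cycle genes called, given below, were near these shares. Gsta2, a glutathione transferase, had 143 and 109 CPM in C and 75.6 and 81.2 CPM in D, against 14.5 and 22.6 CPM in E and 7.62 and 6.92 CPM in A (log2 fold change 3.1, SE 0.24, edgeR adjusted p = 1.88e-05). Gstk1, the kappa class enzyme, had 28.8 and 43.7 CPM in C and 36.9 and 24.6 CPM in D, against 10.2 and 5.65 CPM in E and 5.28 and 6.31 CPM in A (log2 fold change 2.29, SE 0.33, edgeR adjusted p = 0.000758). Gsta1, which is close in sequence to Gsta2 so that reads may be shared, had 6.41 to 12.8 CPM in stages IV-VIII and 0.204 to 1.26 CPM in stages IX-XII (log2 fold change 3.86, edgeR adjusted p = 0.000143). These 3 genes separated the states without overlap, and Gstm6 and Gstt2 were the others called higher (log2 fold change 0.68 and 1.21, edgeR adjusted p = 0.0344 and 0.0211). Gstm6 was not called without A2, C1, C2, D1, D2 or E2 (edgeR adjusted p 0.0571 to 0.168), nor Gstt2 without C1, D2 or E1 (0.0722 to 0.128). On the scale of the Sertoli core list 3 members were higher and 2 lower. Mgst1, a membrane-bound transferase, was lower, with 52.3 and 40.6 CPM in C and 80.3 and 71.2 CPM in D, against 126 and 127 CPM in E and 155 and 102 CPM in A (log2 fold change -1.11, SE 0.26, edgeR adjusted p = 0.013), and was not called without library D2 (edgeR adjusted p = 0.0612) or library E1 (0.051). Of 14 proteases and inhibitors (median -0.04), Adam8 was higher and the cystatin gene Cst8 lower, at 17.3 to 38.3 CPM in stages IV-VIII and 90.3 to 118 CPM in stages IX-XII (log2 fold change -1.77, edgeR adjusted p = 0.00042). Immediate early genes, which respond to cell dissociation, had 1 of 18 members higher (Fosl2, 10.2 to 17.2 CPM in stages IV-VIII and 2.93 to 5.87 CPM in stages IX-XII, log2 fold change 1.7, edgeR adjusted p = 0.00221) and 0 lower, with a median of -0.13. Of 20 cell cycle genes (median 0.17), the replication helicase subunit Mcm3 was higher (log2 fold change 1.21, edgeR adjusted p = 0.00377) and Cdk1 lower (log2 fold change -0.72, edgeR adjusted p = 0.0357). Cdk1 was not called without A2, C1, D1, D2, E1 or E2 (edgeR adjusted p 0.0524 to 0.13).

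Counts of most lists moved when 1 library was left out. Over the 10 such fits, members higher ranged from 1 to 4 in the Sertoli core list, 1 to 4 in the retinoid list, 0 to 2 among junction genes, 3 to 5 among actin and myosin genes, 4 to 5 in the S100 and Ndrg families and 2 to 4 in the Notch pathway. They ranged from 3 to 5 among glutathione enzymes, 0 to 4 among spermatocyte genes, 1 to 6 among round spermatid genes, 0 to 1 among myoid genes and 2 to 3 among endothelial genes. Members lower ranged from 1 to 3 in the retinoid list, 3 to 7 among junction genes, 0 to 3 among actin and myosin genes, 1 to 4 among uptake genes, 0 to 4 among glycolysis genes and 0 to 3 among cholesterol genes. They ranged from 1 to 3 in the lipid droplet list, 0 to 4 among glutathione enzymes and 5 to 12 among elongating spermatid genes. The S100 and Ndrg list had 0 members lower in each of these fits, and the elongating spermatid list had at most 1 higher.

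**Figure D4:**
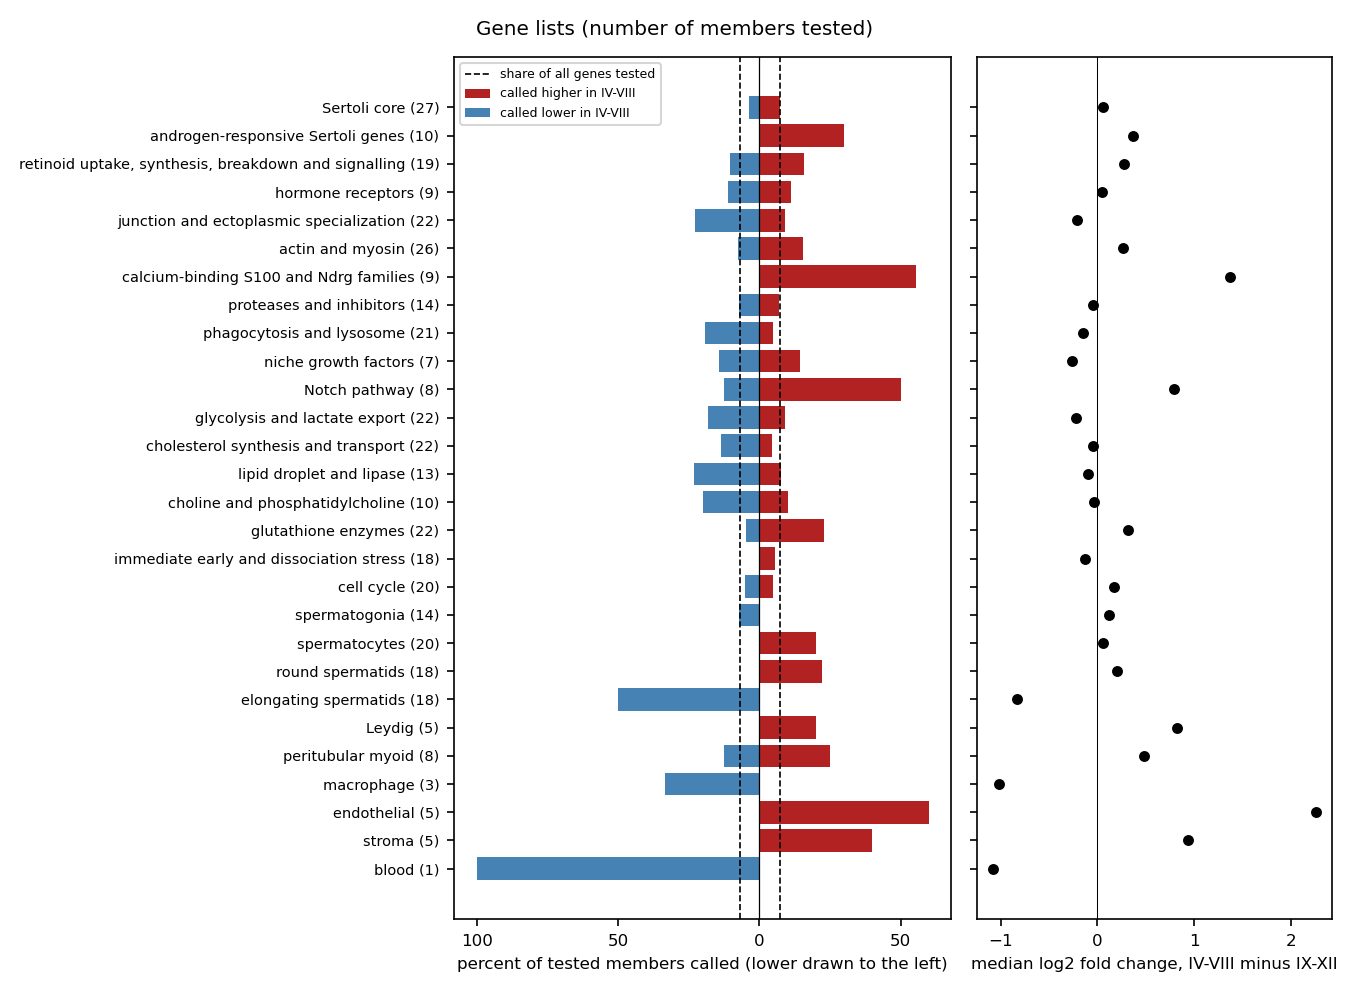
Percent of tested members of each of 28 gene lists called higher (red, right) or lower (blue, left) in stages IV-VIII, with dashed lines at the shares of all genes tested (7.28% and 6.93%), and the median log2 fold change of each list (black points). The S100 and Ndrg, Notch and endothelial lists reach farthest to the right, and the elongating spermatid list reaches 9 of 18 to the left.

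Germ cell genes were called in different directions by list. The summed levels of spermatocyte, round spermatid and elongating spermatid genes overlapped between the states. Those of spermatogonial genes did not, at 0.063 to 0.0935% of normalised counts in stages IV-VIII and 0.0958 to 0.105% in stages IX-XII. Spermatocyte genes were 0.245 to 0.333% of normalised counts in stages IV-VIII and 0.205 to 0.388% in stages IX-XII. Round spermatid genes were 0.0619 to 0.0846% in stages IV-VIII and 0.0502 to 0.103% in stages IX-XII. Of 18 elongating spermatid genes, 0 were higher and 9 lower in stages IV-VIII, with a median log2 fold change of -0.83. The 9 included the marker Tnp1, chosen with earlier results of these data known. Tnp2, the second transition protein, had 665 and 577 CPM in C and 168 and 393 CPM in D, against 1583 and 2079 CPM in E and 2075 and 2365 CPM in A (log2 fold change -2.27, SE 0.27, edgeR adjusted p = 0.000178). Prm1 had 1066 and 1539 CPM in C and 131 and 184 CPM in D, against 1108 and 1447 CPM in E and 1815 and 2284 CPM in A (log2 fold change -1.84, SE 0.21, edgeR adjusted p = 0.00017), so group C overlapped stages IX-XII and group D held the low values, whereas Tnp2 did not overlap. With library C1 left out, 6 of the 18 were lower. Of 18 round spermatid genes, 4 were higher and 0 lower (median 0.20), beside 7.28% and 6.93% of all genes tested. On the scale of the Sertoli core list 3 were higher and 2 lower. Catsper3, a sperm calcium channel subunit, had 16.1 and 30.3 CPM in C and 12.2 and 32 CPM in D, against 3.32 and 5.65 CPM in E and 0.978 and 2.85 CPM in A (log2 fold change 2.95, SE 0.48, edgeR adjusted p = 0.00158). Catsper3 had no overlap, and its call held under every alternative. Izumo1 and Acrv1 were also called higher (log2 fold change 1.42 and 1.94), with calls lost under 7 and 11 of 27 alternatives. Without group A their log2 fold changes were 1.16 and 0.93 (edgeR adjusted p = 0.102 and 0.362). Of 20 spermatocyte genes, 4 were higher and 0 lower (median 0.06, and -0.10 on the scale of the Sertoli core list), and without C1 there were 2 higher and 1 lower. The piRNA protein gene Piwil2, among the 4, had 200.5 and 97.5 CPM in C and 139 and 118 CPM in D, against 50.2 and 69.1 CPM in E and 56.3 and 76.4 CPM in A (log2 fold change 1.14, SE 0.24, edgeR adjusted p = 0.00785). The surface protein gene Tex101 had 82.2 to 127 CPM in stages IV-VIII and 13.1 to 62 CPM in stages IX-XII (log2 fold change 1.57, edgeR adjusted p = 0.0106). Both genes separated the states without overlap, and both calls were lost without library E1 (edgeR adjusted p = 0.0676 and 0.0759). Piwil1 of the spermatocyte list was also called higher (log2 fold change 1.25) and lost its call under 7 of 27 alternatives. Of 14 spermatogonial genes (median 0.12), 1 was lower, Etv5, which Sertoli cells also express. It had 188 and 158 CPM in C and 62.3 and 66.9 CPM in D, against 193 and 122 CPM in E and 262 and 243 CPM in A (log2 fold change -0.92, SE 0.19, edgeR adjusted p = 0.00744). Etv5 was lowest in group D, and its call was lost without library E1 (log2 fold change -0.75). Without group D its log2 fold change was -0.20 (edgeR adjusted p = 0.702), and without group A -0.58 (0.151). In a fit of the 8 libraries as 2 states it was -0.80 (0.204). A fit with the mean log2 CPM of the spermatocyte, round spermatid and elongating spermatid genes as a covariate called 3405 genes, among them 2027 of the 2037. Called members of these lists went in different directions, so their mean cannot show whether the calls follow germ cell content, which was not tested.

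Markers of other testis cells were at or near 0 for some genes of a list and well above it for others, and some moved with the states. The 5 endothelial genes tested held 3 higher (Cdh5, Tek and Kdr) and 0 lower, beside 7.28% and 6.93% of all genes tested. Cdh5, the endothelial cadherin, had 6.32 and 15.9 CPM in C and 10.3 and 9.48 CPM in D, against 1.37 and 0.837 CPM in E and 0.587 and 0.815 CPM in A (log2 fold change 3.53, SE 0.43, edgeR adjusted p = 0.000223). Tek had 3.12 to 7.0 CPM in stages IV-VIII and 0.209 to 0.815 CPM in stages IX-XII (log2 fold change 2.78, edgeR adjusted p = 0.00264). Kdr (log2 fold change 2.26, edgeR adjusted p = 0.0238) was not called without C2 (edgeR adjusted p = 0.441, log2 fold change 0.90), D2 (0.109), E1 (0.108) or E2 (0.0894). The other endothelial genes tested, Flt1 and Vwf, had negative log2 fold changes (-0.90 and -0.17) and were not called (edgeR adjusted p = 0.37 and 0.807). All 7 endothelial genes together were 0.00242 to 0.00407% of normalised counts in stages IV-VIII and 0.00141 to 0.00219% in stages IX-XII. Among Leydig genes, Insl3 and Lhcgr had 0 counts in all 8 libraries. Hsd3b1, a steroid dehydrogenase with near-identical copies, had 73 counts over stages IV-VIII and 3 over stages IX-XII and was called higher. Star, of steroid synthesis, had 15.4 to 29.2 CPM in stages IV-VIII and 12 to 23.3 CPM in stages IX-XII (log2 fold change 0.24, edgeR adjusted p = 0.624), and Ptgds, a prostaglandin synthase, 40.7 to 419 CPM in stages IV-VIII and 67.6 to 226 CPM in stages IX-XII (1.02, 0.13), so neither was called. The Leydig genes together were 0.00671 to 0.0454% and 0.00823 to 0.0251%. Macrophage genes were 0.0146 to 0.0256% in stages IV-VIII and 0.0292 to 0.0413% in stages IX-XII. Most of these counts were of Mrc1 (1141 over stages IV-VIII and 2898 over stages IX-XII) and Aif1 (1287 and 3963). The other macrophage genes had few counts, with 16 and 13 for Csf1r, 11 and 48 for C1qb and 5 and 5 for C1qa. C1qc had 2 and 2, and Cd68 1 and 9. Of 3 tested, 1 was lower (Aif1, which had 47.5 to 157 CPM in stages IV-VIII and 139 to 262 CPM in stages IX-XII, log2 fold change -1.02, edgeR adjusted p = 0.0157), while the mannose receptor gene Mrc1 had 61.2 to 114 CPM in stages IV-VIII and 94.5 to 205 CPM in stages IX-XII and was not called (-0.67, edgeR adjusted p = 0.118), and the macrophage lysozyme gene Lyz2 had 0 counts over stages IV-VIII and 7 over stages IX-XII. Without C2, D1 or E2, Aif1 was not called (edgeR adjusted p = 0.058, 0.0609 and 0.0731). Of 8 myoid genes, 2 were higher (Mylk and Lmod1) and 1 lower (Actg2), at 0.0367 to 0.0478% and 0.0332 to 0.0468%. Lmod1 was called in none of the 10 fits that left out 1 library (edgeR adjusted p 0.0638 to 0.232). Mylk was not called without C2, D1, E1 or E2 (edgeR adjusted p 0.0578 to 0.0881), and Actg2 was not called without D1 (0.0505). On the scale of the Sertoli core list 0 myoid genes were higher and 1 lower, and without library C1 there was 1 of each. Of 5 stroma genes, Pdgfra (14 to 18.4 CPM in stages IV-VIII and 4.07 to 9.0 CPM in stages IX-XII) and Col1a1 were higher and 0 lower, and Col1a1 was not called without A2, C1, D2, E1 or E2 (edgeR adjusted p 0.0865 to 0.243); stroma genes together were at 0.0102 to 0.0175% and 0.0126 to 0.0167%. Of the stroma genes tested, 4 had a log2 fold change above 0 and 1 below it. Fbln1, which held most counts of the list, had 1071 counts over stages IV-VIII and 2513 over the deeper stages IX-XII. Dcn had 12 and 29 counts, and Lum 0 and 10. On the scale of the Sertoli core list 1 stroma gene was higher and 1 lower. Of the 5 blood genes in the table only Alas2 passed the filter, with 686 and 448 CPM in C and 37.2 and 31.5 CPM in D, against 225 and 95.6 CPM in E and 489 and 598 CPM in A. It was called lower (log2 fold change -1.08, edgeR adjusted p = 0.0221), with group C within or above the range of stages IX-XII and group D below it, while the globin gene Hba-a1 had 13 counts over stages IV-VIII and 22 over stages IX-XII. Alas2 was not called without C2, D1, D2 or E1 (edgeR adjusted p = 0.0759, 0.0557, 0.097 and 0.137), and without group D its log2 fold change was 0.94. The part of these cells in the results was not tested.

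Group B, stages I-III, lay nearer to stages IX-XII, the stages it follows in the cycle. A position of 0 was set at the IX-XII mean and 1 at the IV-VIII mean of log2 CPM. The median position was 0.319 over the 1044 genes called higher and 0.147 over the 993 called lower. The position was in the part nearest stages IX-XII for 51.1% of genes called higher and 69.8% of genes called lower, and nearest stages IV-VIII for 15.9% and 7.65%, cutting the range from 0 to 1 in 3 equal parts. The 2 libraries differed in depth (1901743 counts in B1 and 3121146 in B2) and in position, with medians of 0.137 (B1) and 0.492 (B2) for genes called higher, and 0.039 and 0.273 for genes called lower. S100a1 had 20.3 and 23 CPM in group B (position 0.33), Rhox5 106 and 157 CPM (0.18) and Tnp1 2314 and 1838 CPM, within the IX-XII range. Mical2 was at the IV-VIII level, with 248 and 449 CPM (1.05), and Slc13a2 nearer to it than to stages IX-XII, with 11.8 and 24.6 CPM (0.70). Stra6 was lower in group B than in stages IX-XII on average, with 5.35 and 4.86 CPM. Group B differed from stages IV-VIII in 595 genes (4.15%), 379 higher (2.64%) and 216 lower (1.51%). It differed from stages IX-XII in 43 (0.3%), 42 higher (0.293%) and 1 lower (0.00698%; mt-Nd6, named after its value was seen). The first count was 88 and 154 without B1 and B2, 390 without C2, 159 and 348 without D1 and D2, and 381 and 392 without E1 and E2. The second was 0 without library B2, E1 or E2, 77 without A2, and 23 and 19 without D1 and D2.

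**Figure D5:**
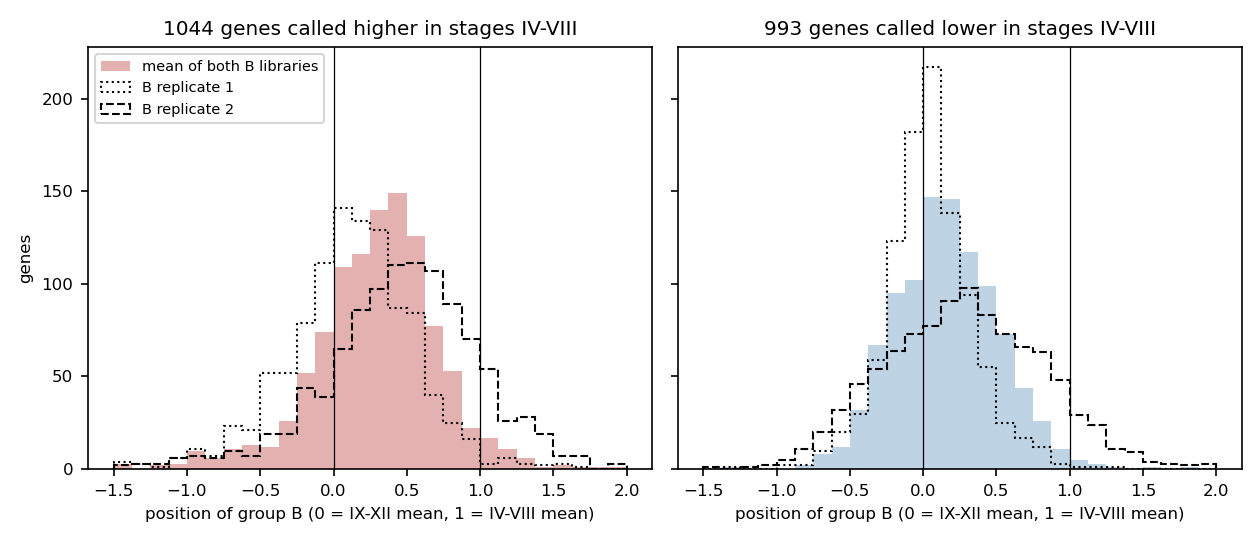
Number of genes by position of group B between the mean of stages IX-XII (0) and of stages IV-VIII (1), for genes called higher (left) and lower (right). Filled bars are the mean of both group B libraries, and lines are each library (values beyond the axis drawn at its ends). Medians are 0.319 and 0.147, and replicate 2 lies to the right of replicate 1.

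Testes without germ cells expressed genes that were higher at stages IV-VIII at near the share of all genes tested, and fewer of those that were lower. A mean of at least 1 CPM in NANOS2 KO testis was reached by 83.4% of genes called higher, 60.6% of genes called lower and 85.2% of all genes tested. A level under 0.1 of that in sorted cells was found for 16.5%, 45.8% and 15% of these genes. Padi2 averaged 66.9 CPM ± 17.8 in NANOS2 KO testis (SD, n = 18) and Pcyt1b 52.1 CPM ± 10.8, whereas S100a1 averaged 24.4 CPM ± 13.2 and Rhox5 83.7 CPM ± 21.8. The sets of libraries were scaled separately, so levels were not tested across them. Among genes of at least 1 CPM in NANOS2 KO testis, 790 were higher and 686 lower between the states (6.47% and 5.62% of 12214). Over the 9 days of NANOS2 KO testis, 76 of 13065 genes differed (0.582%, edgeR F test). They included 11 of 828 genes called higher between the states (1.33%), 7 of 550 called lower (1.27%) and 56 of 11526 genes tested in both sets (0.486%). Of these genes, Tmem255a ranged from 100.3 to 234 CPM over the NANOS2 KO libraries (edgeR adjusted p = 0.0241). The count of 76 was 17 in the 8 days other than day 42, 24 and 42 without libraries 1 and 2 of day 42, 47 without day 43 replicate 1, 50 without day 45 replicate 1, 38 and 35 without day 48 replicates 1 and 2, 156 and 909 without day 49 replicates 1 and 2, and 253 without day 50 replicate 2.

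By position, 6.56% of genes called higher and 8.09% of genes called lower lay on the X chromosome, against 4.05% of all genes tested with a position. Long noncoding RNA genes were 3.09% of those called higher, 8.39% of those called lower and 4.79% of all. Protein-coding genes were 95.6%, 88.7% and 89.3%.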

How the data were processed

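RNA was measured with polyA-selected Ion Proton libraries from sorted Sertoli cells and from NANOS2 KO testis, per the labels' protocols. The authors deposited whole-number counts for 43280 gene rows, and a normalised table named for FPKM whose values equal CPM of those counts to within 0.0005, so only the deposited counts were tested and the deposited CPM were checked against them. Bowtie, TopHat and Cufflinks with build mm10 are named in the submitters' processing notes; versions and the counting step are not given in the sources used. Gene symbols turned into dates (27) were left out.

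The 10 sorted libraries were fitted together by stage group with edgeR 4.0.16 (R 4.3.3; filterByExpr, TMM scaling, quasi-likelihood F test, Benjamini-Hochberg adjustment, threshold 0.05; 5 residual degrees of freedom, biological coefficient of variation 0.268). The state difference is the mean of groups C and D minus the mean of groups E and A, in log2. CPM are computed after TMM scaling (factors 0.958 to 1.05), without gene length, so levels are not compared between genes. A count of 3 is 0.784 to 1.12 CPM in stages IV-VIII and 0.568 to 0.658 CPM in stages IX-XII, for counting error only. The NANOS2 KO libraries (1336742 to 4370138 counts) were scaled as a set of their own and tested over days (13065 genes, coefficient of variation 0.122). DESeq2 1.42.0, limma 3.58.1, other scalings, filters, thinning and leaving out each library were alternatives.

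The members, markers and gene lists were chosen with earlier results of these data known. Named genes are the 4 markers, the 12 largest rises and falls that average 4 log2 CPM or more, the 8 largest of each at 1 CPM or more in NANOS2 KO, and up to 3 called members of each list and direction with the smallest p; unnamed clones, ribosomal, mitochondrial and small RNA genes were left out. Other genes named were chosen after their values were seen. The results of 2 genes, among them 1 of the 12 largest rises, are not reported here.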

Additional observations from a re-analysis of the deposited data

Results flagged for a closer look

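For each of 100 named genes and each state, the highest or lowest of 4 libraries was set against the other 3. In 6 of 200 such groups the gap to the nearest library took more of the whole range than Dixon's 95% critical value for 4 values; chance flags about 1 group in 20. Lgals1, galectin-1, had 433 CPM in library E2, below 647 to 671 CPM in the other IX-XII libraries. Hk2, a hexokinase, had 367 CPM in A1, above 276 to 282 CPM in the other IX-XII libraries. Abhd5, the lipase activator, had 224 CPM in A2, above 154 to 163 CPM. Mylk, a myosin kinase, had 103 CPM in A2, below 145 to 153 CPM. Tek, an endothelial receptor, had 0.209 CPM in E2, below 0.782 to 0.815 CPM, a difference of a few reads. Chdh, choline dehydrogenase, was the 1 case in stages IV-VIII, with 38.3 CPM in C1, above 2.58 to 6.87 CPM in the other 3 libraries. C1 is also the library that lay in the IX-XII range for Notch1, Drd4 and Stra6.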

How the results depend on the processing

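The 2037 calls between the states (1044 higher, 993 lower) kept within 1.5 times under DESeq2, other scaling, limma on log2(CPM + 0.1) or log2(CPM + 1), and thinning (chosen after seeing the data), in total. Totals moved to 3405 (1768 higher, 1637 lower) with germ cell transcripts as a covariate and to 1223 (651, 572) with limma on log2(CPM + 1) and no filter. They were 1163 (564, 599) without group A, 850 (531, 319) without group D and 1094 (502, 592) without group E, and 1193, 468 of them lower, without C1 and D1 together (chosen after seeing the data). The calls higher were 668 on the scale of the Sertoli core list, and the calls lower 633 in a fit of the 8 libraries as 2 states and 1603 with no filter, where the median of all genes was -0.10. The cause was not tested.

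With DESeq2 and with no filter, counts were 310 and 617 for D minus C (90), 35 and 138 for A minus E (0), 894 and 1149 for group B minus stages IV-VIII (595), 92 and 255 for group B minus stages IX-XII (43), 140 and 210 for genes lower in both D minus A and C minus E (90), and 215 and 968 for days in NANOS2 KO testis (76). C minus E (680) called 1376 with no filter.

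Leaving out 1 library gave 919 to 2150 state calls (454 to 1054 higher, 465 to 1161 lower), 0 to 392 for D minus C, 0 to 15 for A minus E, 613 to 1792 for D minus A, 18 to 980 for C minus E, 88 to 881 for group B minus stages IV-VIII and 0 to 77 for group B minus stages IX-XII. Genes higher in both D minus A and C minus E were 10 to 189 and lower in both 5 to 103. Days in NANOS2 KO testis gave 24 to 909. Group B median positions ranged from 0.137 to 0.492 for genes higher and from 0.039 to 0.273 for genes lower.

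With the replicate number as a block the state calls were 2562, D minus C 178 and genes lower in both comparisons 144. Deviations of same-numbered libraries correlated at 0.143 to 0.43 among groups A, B, D and E and at -0.111 to -0.0348 with group C, so same-numbered libraries deviated together in those 4 groups and not in group C, and the rule of a correlation over 0.1 in every pair was not met. With the block D minus A called 1983 genes (1558 without it). For the 8 days of NANOS2 KO testis with numbered replicates (16 libraries), 12 genes were called with the replicate block and 17 without it (a fit chosen after seeing the data), and 1 of 28 pairs of days had a correlation over 0.1 (-0.274 to 0.13). Of 100 named genes, 41 kept their call under every alternative. Of 2782 values for them, 375 lost the threshold and 2 changed sign, both without group D (Gas6 at 0.28 and Alas2 at 0.94). Depth limits genes of a few CPM most, in stages IV-VIII more than in stages IX-XII.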
